A study of Mus musculus with 4 samples.

Results

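The genes described here are 10 transcription factors that pattern the vertebrate limb: Pitx1, Tbx4, Tbx5, Tbx3, Tbx15, Meis1, Meis2, Shox2, Prrx1 and Prrx2. They were taken by gene symbol from the annotation of the array, and all 10 had a probe set with exactly 1 symbol, out of 22180 genes measured in this way on 23521 probe sets. Each of the 10 had 1 such probe set, so no choice between probe sets arose. The tissue was hindlimb tendon, the Achilles and plantaris tendons, of wild-type C57Bl/6 mice, an inbred strain, which were 4 months old and untreated. There were 2 arrays from females and 2 from males, and the series was made to describe normal expression in each sex. The tendons of an animal were pooled into one extract, and the labels name the cells as tenocytes although whole tendon was homogenised. Whether the arrays of a sex stand for separate animals is not stated, so the spread behind each p-value may be technical.

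In the embryo, fore- and hindlimb buds are built by largely shared programs, and a few transcription factors tell them apart. Pitx1, a homeodomain factor, and its target Tbx4, a T-box factor, are restricted to the hindlimb bud, whereas the related T-box gene Tbx5 is restricted to the forelimb bud, where it starts limb outgrowth. Meis1 and Meis2 mark the proximal segment of the bud, Shox2 is needed for the proximal long bones, and Prrx1 and Prrx2 are homeodomain factors of the limb mesenchyme, which also gives rise to tendon.

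The chromosomes, from the RefSeq gene table of GRCm38.p6, are 13 for Pitx1, 11 for Tbx4 and Meis1, 5 for Tbx5 and Tbx3, 3 for Tbx15 and Shox2, 2 for Meis2 and Prrx2, and 1 for Prrx1. RefSeq promoter sequence was at hand for 6 of the 10, namely Tbx4, Meis1, Meis2, Shox2, Prrx1 and Prrx2. The 250 bases before the start are shown for Tbx4, a target of Pitx1 in the hindlimb bud, and for Prrx1, a factor of the limb mesenchyme. Tbx4 lies on the plus strand (chr11:85896515-85896764) and Prrx1 on the minus strand (chr1:163313651-163313900), and both are written 5′ to 3′ along the gene. Capitals mark any match to the 4 motifs listed after the sequences.
Tbx4: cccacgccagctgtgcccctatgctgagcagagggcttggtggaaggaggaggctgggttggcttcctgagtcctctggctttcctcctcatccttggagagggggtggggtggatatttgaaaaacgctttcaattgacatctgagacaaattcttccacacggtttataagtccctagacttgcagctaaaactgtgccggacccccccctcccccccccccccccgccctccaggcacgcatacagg
Prrx1: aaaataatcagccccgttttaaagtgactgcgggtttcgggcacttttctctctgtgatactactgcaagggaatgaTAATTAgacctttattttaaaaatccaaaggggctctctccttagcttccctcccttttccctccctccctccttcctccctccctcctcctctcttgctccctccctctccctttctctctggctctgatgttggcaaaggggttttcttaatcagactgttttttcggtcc
The motifs were TAATTA for paired-type homeodomain factors such as Prrx1 and Shox2, TAATCC for PITX factors, AGGTGT for T-box factors and TGACAG for MEIS factors, searched on both strands. TAATTA is its own reverse complement, and TAATTA and TAATCC share their first 4 letters. Prrx1 held TAATTA once, beginning 173 bases before the start, and it was the one match among the 6 promoters. Among 32851 promoter windows of the same length, TAATTA was found in 4.84%, TAATCC in 6.25%, AGGTGT in 11.8% and TGACAG in 15.9%. These matches describe letters in a window and are not measured sites.

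Values are log2 RMA values as deposited, 1 per array. A probe set's value depends on its own probes as well as on RNA, so the levels of different genes are not set against each other. Each was compared instead with a background floor on the same array, the 95th percentile of 1405 probe sets for olfactory and vomeronasal receptors, which sensory neurons use and which were taken as off in tendon. The floor was at 2.77 and 2.73 on the arrays of females 1 and 2, and at 2.90 and 2.85 on those of males 1 and 2. Of all probe sets tested, 31.4% lay above the floor on 4 of 4 arrays and 52.5% on 0 of 4, and 3.13% of the receptor probe sets themselves lay above it on 4 of 4. A value under the floor says only that the signal was not told from background. A stricter floor, the 99th percentile of the same receptors, was between 3.75 and 4.25.

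The label of the tissue was checked against its markers. Of 9 tendon markers, 8 lay above the floor on 4 of 4 arrays, among them Col1a1, Scx and Tnmd, and Mkx lay above it on 2. Scx passed the floor by only 0.34 to 0.78 and lay under the stricter floor on every array. Skeletal muscle markers were also present, 11 of 11 above the floor on 4 of 4 arrays, with Ckm, the muscle creatine kinase gene, at 10.04 ± 0.44 (SD, n = 2) in females and 10.40 ± 0.16 (SD, n = 2) in males. The muscle actin gene Acta1 averaged 11.22 in females and 11.15 in males. Adipocyte (Adipoq) and endothelial (Pecam1) markers lay above the floor on 4 of 4 arrays as well, Pax7 of satellite cells on 3 and the leukocyte gene Ptprc on 1. Of the full lists, 5 of 6 adipocyte and 3 of 5 endothelial markers lay above it on 4 of 4 arrays. So did 3 of 5 blood and macrophage markers and 1 of 3 satellite cell markers. The values of each limb gene therefore sum over several cell types, and fewer cells of a type cannot be told from less RNA per cell.

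The hindlimb and forelimb factors were compared first, since the tendons came from the hindlimb. Tbx4 lay above the floor on all 4 arrays, Pitx1 on 1 of 4, and the forelimb factor Tbx5 on 0 of 4. Tbx4 (probe set 17254602) was at 3.01 and 3.41 in females 1 and 2, against 2.92 and 2.92 in males 1 and 2. Its margin over the floor was 0.24 and 0.68 in females but only 0.02 and 0.07 in males. Pitx1 (probe set 17292967) was at 2.39 and 2.21 in females and at 2.64 and 2.89 in males, and male 2 alone passed the floor, by 0.04. Tbx5 (probe set 17441610) was at 2.33 and 2.14 in females and at 2.42 and 2.31 in males, which is 0.44 to 0.59 under the floor across the arrays. Tbx4 thus sat just over background, Pitx1 mostly under it and Tbx5 under it throughout. This order has no test, because it sets probe sets side by side, and against the stricter floor none of Pitx1, Tbx4 and Tbx5 lay above on all 4 arrays. It also depends on the floor. The array medians, a lower floor, were 2.27 and 2.28 for females 1 and 2, and 2.30 and 2.29 for males 1 and 2. Against them Pitx1 and Tbx5 did not differ, as both lay above on every array except female 2.

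**Figure D1:**
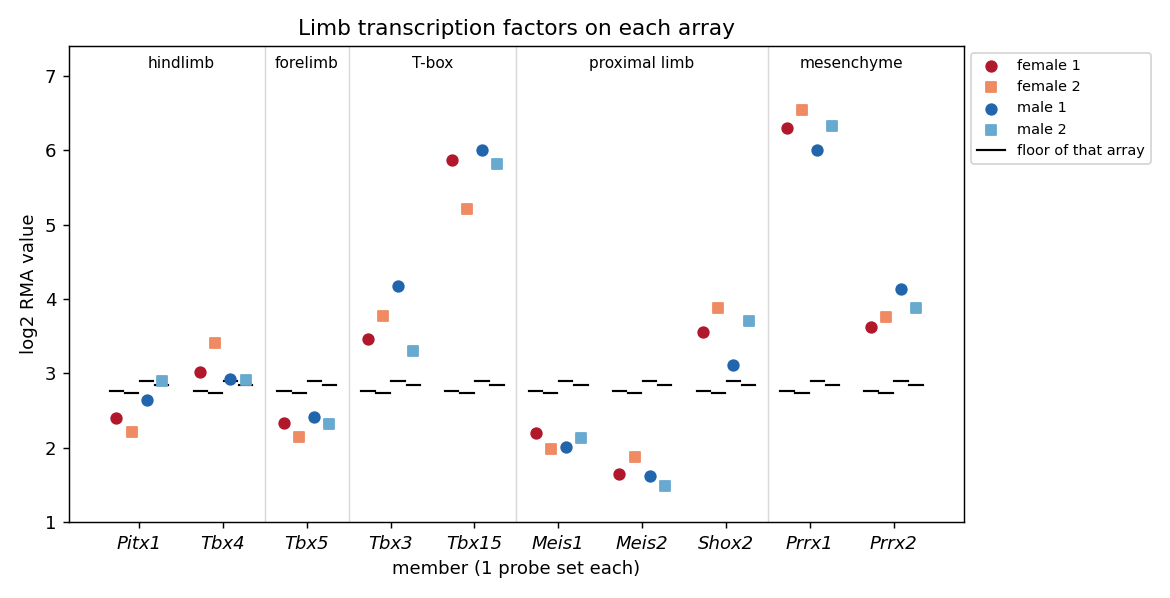
The log2 RMA value of each of the 10 genes (horizontal axis, grouped by role) on each of the 4 arrays, with a short black line at the floor of that array. Prrx1 and Tbx15 sit far over the floor on every array, Tbx4 just over it, Tbx5, Meis1 and Meis2 under it; heights of different genes are not comparable.

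Other genes listed for the hindlimb or forelimb field were mixed. Isl1, which acts upstream of hindlimb outgrowth, lay above the floor on 4 of 4 arrays, at 3.61 and 3.71 in females and 3.09 and 3.47 in males. Hoxc10, a posterior Hox gene of the hindlimb bud, also lay above it on 4 of 4, at 4.74 and 4.36 in females and 4.91 and 4.63 in males, whereas Hoxc11 did so on 1. Of the genes listed for the forelimb field, Hoxc4 lay above the floor on 4 of 4 arrays, at 3.73 and 3.64 in females and 3.40 and 3.90 in males. Hoxc5 lay above it on 0. Hand2, which sets up the posterior margin of both limb buds, did so on 2, both from females. In all, 3 of 5 genes listed for the hindlimb (Tbx4, Isl1 and Hoxc10) lay above the floor on 4 of 4 arrays. Of the 4 listed for the forelimb 1 did so (Hoxc4), beside 31.4% of all probe sets. These 4 include Hand2 of both limb buds, and Tbx4 passed the floor by only 0.02 and 0.07 in males.

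The remaining T-box genes gave clearer signal. Tbx15 (probe set 17400901), a T-box factor of limb skeletal development and of fast muscle fibres, was at 5.87 and 5.21 in females 1 and 2, against 6.00 and 5.82 in males 1 and 2. All 4 values lay between 2.47 and 3.10 over the floor, and also over the stricter one. Tbx3 (probe set 17441595), needed for the posterior limb and the ulnar side, was at 3.47 and 3.77 in females and at 4.17 and 3.30 in males. The male arrays stood 0.87 apart and enclosed both females. Tbx3 passed the floor on 4 of 4 arrays by 0.45 to 1.27.

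Tbx15 was lowest in female 2, the array that was also lowest for 8 of the 11 muscle markers. Of these, 3 stood far apart. Myh4, a fast myosin heavy chain gene, was at 10.20 and 7.35 in females 1 and 2 and at 10.61 and 10.46 in males 1 and 2. Actn3 was at 9.41 and 6.68 in females and at 10.01 and 9.67 in males, and Mybpc2 at 8.62 and 6.20 in females and at 9.72 and 9.02 in males. Ckm in female 2 was at 9.72, against 10.35 in female 1 and 10.52 and 10.29 in males 1 and 2, and Ttn was at 9.99, against 10.52 in female 1 and 10.26 and 10.32 in the males. Acta1, Tnnt3 and Tnni2 lay closer together, Tnnt3 at 10.78 and 10.66 in females and 10.92 and 10.88 in males. The other fast myosin genes did not share the low values: Myh1 was at 9.17 and 8.93 in females and at 8.86 and 8.78 in males, and Myh2 at 9.74 and 9.34 in females and at 9.01 and 9.24 in males. Myh7, a slow myosin gene, was at 9.07 and 8.49 in females and at 6.99 and 8.31 in males, lowest in male 1. The log2 of the summed linear values of all 11 muscle markers was 13.60 and 13.03 in females, and 13.61 and 13.55 in males, and no marker of the list lay under the floor. Without female 2 the difference of Tbx15 between the sexes was -0.04, beside -0.37 with it. The part of muscle RNA in the Tbx15 values was not tested.

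**Figure D2:**
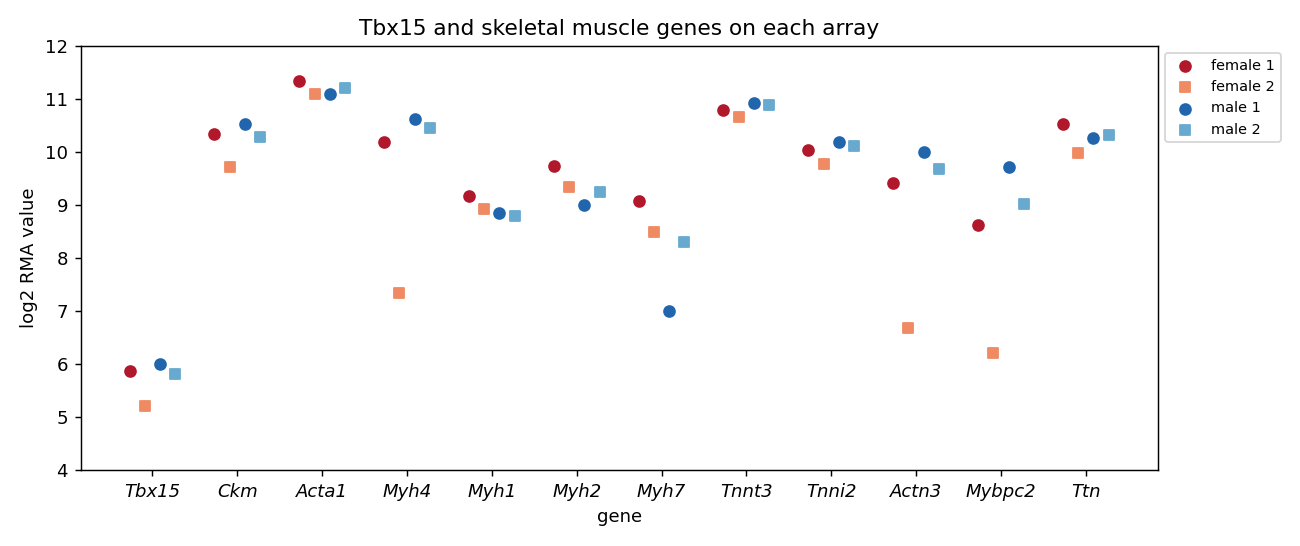
The log2 RMA values of Tbx15 and of the 11 skeletal muscle markers on the 4 arrays. Female 2 is lowest for Tbx15 at 5.21 and for 8 of the 11 markers, most widely for Myh4, Actn3 and Mybpc2, but lies above both males for the fast myosin genes Myh1 and Myh2; the axis starts at 4.

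The factors of the proximal limb were divided. Shox2 (probe set 17405724) was at 3.56 and 3.88 in females and at 3.11 and 3.70 in males, above the floor on 4 of 4 arrays by 0.22 to 1.15. Male 1 was its low array, and the sexes overlapped. Meis1 (probe set 17260815) was at 2.20 and 1.99 in females and at 2.01 and 2.14 in males. Meis2 (probe set 17389608) was at 1.65 and 1.88 in females and at 1.62 and 1.49 in males. Both Meis genes lay under the floor on every array, so neither was told from background and their differences are given as values only. Among their relatives of the TALE homeodomain class, Pknox2 lay above the floor on 4 of 4 arrays, averaging 5.12 ± 0.12 in females and 5.31 ± 0.31 in males (SD, n = 2 each), whereas Meis3 and Pknox1 did so on 1 array each. Pbx2 and Pbx3, DNA-binding partners of the Meis factors, did so on 0.

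Of the mesenchymal pair, Prrx1 (probe set 17229096) was at 6.30 and 6.53 in females and at 6.00 and 6.33 in males, between 3.10 and 3.80 over the floor. It also passed the stricter floor on every array. Its 4 values spanned 0.54, and male 1 was the lowest. Prrx2 (probe set 17369286) was at 3.63 and 3.76 in females, against 4.14 and 3.87 in males, and passed the floor by 0.86 to 1.24. The sexes overlapped for Prrx1 and did not for Prrx2. With Tbx4, Tbx3, Tbx15 and Shox2 the pair made up the 6 of 10 genes above the floor on 4 of 4 arrays, beside 31.4% of all probe sets tested.

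The sexes were then compared with a linear model fitted to all 23521 probe sets (limma), with differences given as female minus male. None of the 10 genes passed an adjusted p of 0.05, and neither did any probe set of the array (0%), where 1056 (4.49%) had an unadjusted p under 0.05. For the 10 genes that number was 0. The lowest adjusted p of any probe set tested was 0.77 (limma). The sex labels were not checked against genes of the X and Y chromosomes, so they are taken as given. The adjusted p of the 10 genes was between 0.969 and 0.999. Of these genes, 5 were higher and 5 lower in females, where 48.8% of all probe sets were higher. Their median difference was -0.05, beside -0.01 over all probe sets tested. The sexes did not overlap for 4 of the 10, a share close to the 33.3% of all probe sets. These were Tbx4 and Meis2, higher in both females, beside 15.8% of all probe sets, and Pitx1 and Prrx2, lower in both females, beside 17.5%. Female 2 was the highest or the lowest array for 8 of the 10 genes, beside 50.8% of all probe sets, a count made after the values were seen. It was highest for Tbx4, Meis2, Shox2 and Prrx1 and lowest for Pitx1, Tbx5, Tbx15 and Meis1. In that array the log2 of the summed linear values of 5 blood and macrophage markers was 7.62, beside 6.03 in female 1, 6.11 in male 1 and 6.05 in male 2, and 3 of the 5 lay above the floor on 4 of 4 arrays. The part of these cells in the limb genes was not tested.

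Pitx1 had the widest difference of the 10. It averaged 2.30 ± 0.13 in females and 2.76 ± 0.18 in males (SD, n = 2 each), a difference of -0.46 (SE 0.17, 95% interval -0.93 to 0.01, limma adjusted p = 0.969). As 3 of its 4 values lay under the floor, its size is not read further. Tbx4 averaged 3.21 ± 0.28 in females and 2.92 in males, a difference of 0.29 (SE 0.19, 95% interval -0.23 to 0.81). The hindlimb pair was thus split in sign, with neither passing the test. Prrx2 averaged 3.69 ± 0.09 in females and 4.01 ± 0.19 in males (SD, n = 2 each), a difference of -0.31 (SE 0.17, 95% interval -0.77 to 0.14). For Pitx1 and Prrx2, 2 of the 10, the difference was wider than the gap between the arrays of each sex, beside 21.3% of all probe sets.

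The other differences were smaller than the gap between arrays of at least 1 sex. They were -0.13 for Tbx5, -0.12 for Tbx3, -0.37 for Tbx15, 0.02 for Meis1, 0.21 for Meis2, 0.31 for Shox2 and 0.25 for Prrx1. Their 95% intervals all included 0, and the widest reached from -1.03 to 0.79 for Tbx3. The interval of Prrx1, with signal far over the floor, was -0.27 to 0.77, so a change of up to 0.77 on the log2 scale is not excluded by 4 arrays. The paralogs Prrx1 and Prrx2 had differences of opposite sign, and the difference between them was not tested. Without male 1 they were 0.088 for Prrx1 and -0.18 for Prrx2.

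**Figure D3:**
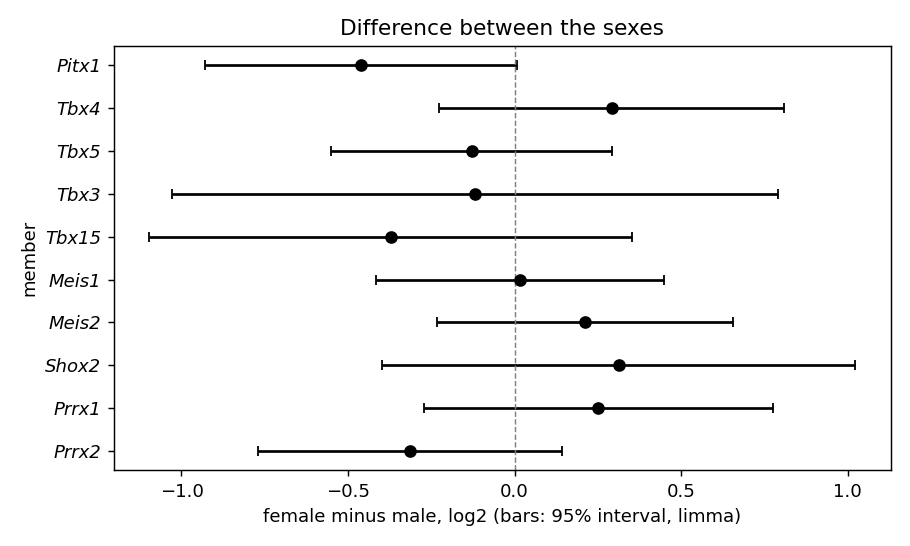
The difference between the sexes for each of the 10 genes, female minus male on the log2 scale (horizontal axis), with 95% intervals from limma as bars. Pitx1 at -0.46 is the widest, and the interval of every gene includes 0.

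A wider list of limb patterning genes was read in the same way. It held 50 genes with values analysed here. Of the 50, 12 lay above the floor on 4 of 4 arrays, 12 on some arrays and 26 on 0, beside 31.4% and 52.5% of all probe sets for 4 and 0 arrays. Those on 4 arrays were Isl1, Hoxc10, Hoxc4, Pknox2, the mesenchymal factors Twist1, Meox1, Meox2, Sox9 and Irx3, the dorsal limb factor Lmx1b, the growth factor gene Bmp4 and Cyp26b1, which degrades retinoic acid. The limb bud signals Shh, Fgf8, Fgf10, Wnt3, Wnt5a and Wnt7a, which drive outgrowth in the embryo, lay above the floor on 0 arrays. The T-box relatives Tbx2 and Tbx18 did so on 0 as well.

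Between the sexes, 0 of the 50 passed the adjusted threshold (limma, beside 0% of all probe sets), 25 were higher and 25 lower in females, and the median difference was -0.01. The sexes did not overlap for 17 of 50, beside 33.3% of all probe sets. Among genes above the floor on 4 of 4 arrays, the widest differences by role were 0.38 (SE 0.19) for Isl1, 0.03 (SE 0.22) for Hoxc4, -0.19 (SE 0.21) for Pknox2, 0.78 (SE 0.21) for Twist1, -0.18 (SE 0.14) for Lmx1b and 0.80 (SE 0.25) for Bmp4. Twist1, a basic helix-loop-helix factor of mesenchyme, was at 5.35 and 5.62 in females, against 4.89 and 4.53 in males.

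An unadjusted p under 0.05 was found for 4 of the 50, beside 4.49% of all probe sets: Twist1, Bmp4, Ptch1 and Rspo2. Ptch1 and Rspo2 are named after their values were seen. All 4 were higher in females, and each had an adjusted p of 0.969 (limma). Adipocyte markers lay the same way: 5 of 6 were higher in females, with a median difference of 0.74, and Plin4 at 1.59 and Cidec at 1.57 had an unadjusted p under 0.05. The log2 of their summed linear values was 10.63 and 10.79 in females, and 10.19 and 10.65 in males, and 5 of 6 lay above the floor on 4 of 4 arrays. Adipocyte markers were not alone in this. Of the blood and macrophage markers 5 of 5 were higher in females (median difference 0.56), and of the endothelial markers 4 of 5 (median 0.17). These leans came largely from single arrays. Each blood and macrophage marker was highest in female 2, where the log2 of their summed linear values was 7.62. That of female 1, at 6.03, lay under both males, at 6.11 and 6.05. Each endothelial marker was lowest in male 1, and the endothelial sum of male 2 lay between the females. Tendon markers, with 4 of 9 higher in females, and muscle markers, with 4 of 11, did not lean towards females. Of all probe sets 48.8% were higher. The part of any of these cell types in the values of the 4 genes was not tested. Ptch1, the Hedgehog receptor and itself a target of the pathway, was at 3.68 and 4.57 in females, against 2.54 and 2.94 in males. Its difference of 1.39 (SE 0.36) was the widest of the 50, and male 1 lay under the floor. Gli1, another Hedgehog target and also named after its values were seen, was at 3.05 and 3.37 in females, against 2.63 and 2.81 in males, with both males under the floor. Rspo2, a Wnt agonist of limb outgrowth, lay above the floor in female 2 alone.

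**Figure D4:**
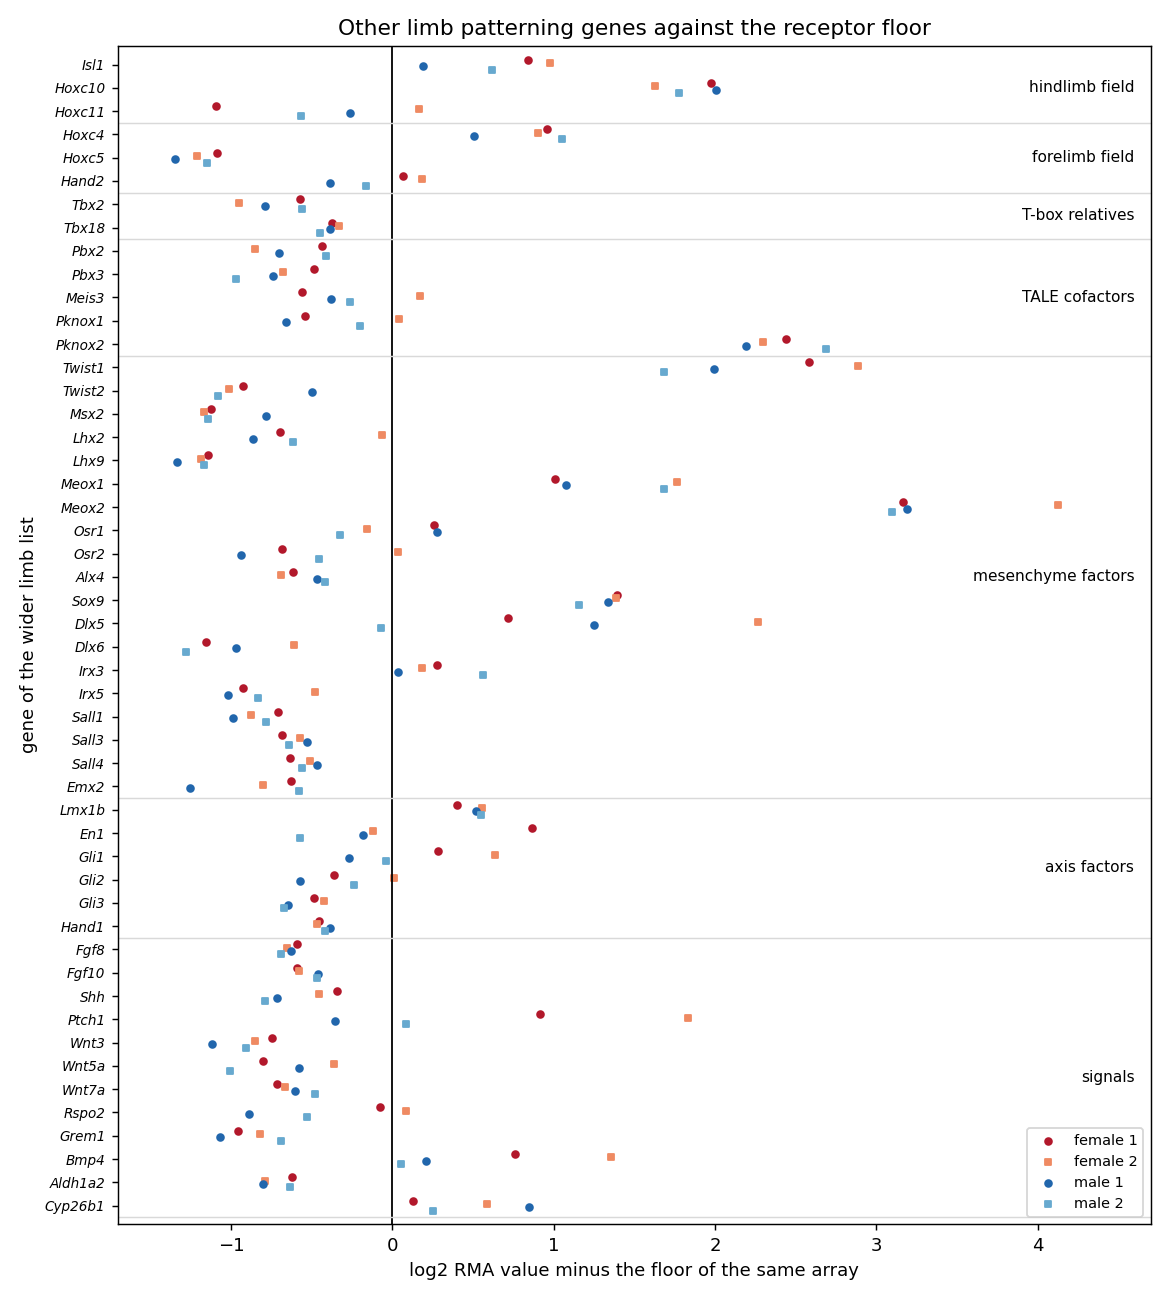
The log2 RMA value minus the floor of the same array for the 50 measured genes of the wider limb list, grouped by role, with the floor as the vertical line at 0. Of the 50 genes, 12 lie right of the line on all 4 arrays and 26 lie left of it on all 4, and the 2 female points of Ptch1 lie right of both male points.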

How the data were processed

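RNA of pooled Achilles and plantaris tendons was amplified, biotinylated and hybridised to Mouse Gene ST 2.1 arrays, per the labels' protocols. The values are the log2 values that the authors deposited, made with oligo and RMA per the submitters' processing notes. Tool versions, the level of summarisation and the build are not given in the sources used here. A log2 scale fits the range of the values, 0.52 to 11.93, and the use of RMA. Of 41345 rows, GEO's platform annotation gave 1 symbol to 23521, several to 1814 and none to 16010. No normalization was added.

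The model had sex alone and was fitted by lmFit and eBayes of limma 3.58.1 (R 4.3.3), with Benjamini-Hochberg adjustment over the 23521 probe sets. The median SE of a difference was 0.19, and the precision is limited by the number of arrays. The floor and the motif search used the probe sets and RefSeq promoters (GRCm38.p6) as described. The linear model was tested on simulated data with added differences far wider than those of the 10 genes. That run does not cover differences of their size, and the floor was not part of it. The members and lists were chosen with earlier results of these data known. All 10 members are named; of the wider list, genes above the floor on 4 of 4 arrays and the widest difference per role; of the markers, a fixed few. Some listed genes are not reported here. Other genes named were chosen after their values were seen. Replicate numbers are shared by the sexes in the labels; same-numbered arrays did not deviate together (correlation -0.06 over probe sets), so they were not treated as pairs. Figures were drawn with matplotlib 3.10.9.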

Additional observations from a re-analysis of the deposited data

How the results depend on the processing

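The settings tried were a test of all rows, a filter at the median level, another quantile normalization, centring on medians, a prior with trend and robust fitting, weights for arrays, blocking by replicate number, a threshold of 0.1, averaging each gene's probe sets and dropping every array in turn. With each of them limma called 0 probe sets, 0 of the 10 genes and 0 of the wider list, also with the replicate block (0 called). Tbx5, Meis1 and Meis2 have no value among probe sets above the median level. Apart from dropping arrays, only the quantile normalization and the centring altered the differences of the 10 genes. The other settings left these differences as they were, so no sign could turn there. No sign changed among the 10 genes except when an array was left out: Tbx3 ranged from -0.55 to 0.32, turning without female 1 (0.031) and without male 1 (0.32), and Meis1 from -0.089 to 0.12, turning without female 1 (-0.089) and without male 1 (-0.047). Tbx4 ranged from 0.09 to 0.49, Tbx15 from -0.70 to -0.04, Shox2 from 0.02 to 0.61, Pitx1 from -0.59 to -0.33, Tbx5 from -0.22 to -0.03, Meis2 from 0.10 to 0.33, Prrx1 from 0.088 to 0.42 and Prrx2 from -0.45 to -0.18. A lone array of a sex is there assumed to vary like the other sex. The count of genes above the floor on 4 of 4 arrays was 6 with the array median as floor, olfactory receptors alone, quantile normalization or any array left out, and it was the same 6 genes. The array median and the floor from olfactory receptors alone were lower than the main floor on every array. Leaving out an array only relaxes the rule. These settings could thus add genes but not drop any. With the 99th percentile as floor the count was 2, Tbx15 and Prrx1, and neither Pitx1 nor Tbx4 was among them. The hindlimb genes of the wider list were not part of this count. Of them, Hoxc10 lay over that floor on every array, at 4.36 to 4.91, and Isl1 and Hoxc11 lay under it on every array. The arrays' background thus limits what can be said of Pitx1, Tbx4, Tbx5 and the Meis genes.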

Other observations

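Tbx4 and Tbx5 each lie next to a further T-box gene in the RefSeq gene table, Tbx4 beside Tbx2 on chromosome 11 and Tbx5 beside Tbx3 on chromosome 5, pairs that arose by duplication. In these tendons the members of a pair stood on different sides of the floor. Tbx4 lay above it on 4 of 4 arrays and its neighbour Tbx2, at 2.19 and 1.78 in females and 2.11 and 2.29 in males, on 0. The margin of Tbx4 was only 0.02 and 0.07 in males 1 and 2. On chromosome 5 it was Tbx3 that lay above on 4 of 4 arrays and Tbx5 on 0. Against the stricter floor neither Tbx4 nor Tbx3 lay above on 4 of 4 arrays. The neighbours Tbx2 and Tbx3 were looked up after the values were seen.

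Of the wider list, Dlx5, a homeodomain factor of limb and bone, had the widest span over the arrays. It spanned 2.22 and averaged 4.25 ± 1.07 in females and 3.47 ± 0.97 in males (SD, n = 2 each), so its difference of 0.78 (SE 0.70) was smaller than the gap within either sex.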
